A study of Homo sapiens with 3 samples.

Results

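The comparison described here sets MM1S cells cultured with FK866 for 6 h against untreated MM1S cells. MM1S is an established human multiple myeloma cell line. The study hybridised 3 Affymetrix arrays, 1 for each group. The untreated cells carry a treatment time of 0 h in the labels. The treated cells received FK866 at 10 nM for 6 h or for 24 h, and all were grown in RPMI-1640 medium with fetal bovine serum, antibiotics and glutamine. Members were chosen as the 2 arrays titled for the untreated and the 6 h cells, out of 3, and the comparison runs across genes. No untreated array of a matching time is among the groups analysed here, so an effect of FK866 and of time in culture cannot be told apart. With 1 array a side there is no replicate and no test. Fewer cells of a kind and less RNA per cell cannot be told apart either.

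FK866 inhibits NAMPT, the rate-limiting enzyme of the salvage pathway that turns nicotinamide back into NAD. NAD carries electrons in glycolysis and respiration, and sirtuins, poly-ADP-ribose polymerases and CD38 consume it, so cells must keep resynthesising it. Myeloma cells are malignant plasma cells, which fold, glycosylate and secrete protein at a high rate and depend on a large endoplasmic reticulum.

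Values are array signals in arbitrary units. Signals below 16 were set to 16 and log2 values were taken. A difference is the log2 signal at 6 h minus that in untreated cells, and a difference of 1 is a 2-fold change. The table gave 11883 measured genes, of which 5530 had a mean log2 signal over the 3 arrays of at least 8. The latter are called bright genes. Among measured genes 395 were lower at 6 h by 2-fold or more (3.32%), and 171 were higher by that size (1.44%). Among bright genes the 2 counts were 61 lower (1.10%) and 23 higher (0.416%). All counts of genes past 2-fold given for lists of bright genes are read against these last 2 percentages.

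Most bright genes differed little after 6 h. Of the 5530, 5446 lay within 2-fold and 93.3% within 1.5-fold. The median difference was -0.09, with 3691 genes below 0 and 1838 above. The 1st and 99th percentiles were -1.02 and 0.74, and the 5th and 95th were -0.56 and 0.41. On the same arrays the hybridisation controls, which are spiked in after labelling, were lower at 6 h in 12 of 12 bright probe sets with a median of -0.16. The poly-A controls, which are added to the RNA, were lower in 9 of 10 with a median of -0.30. The share of this in the lean towards lower values was not tested. Scaling moved the split of the 84 genes. Quantile normalization gave 38 lower and 32 higher, centring on array medians 29 lower and 50 higher, and subtracting the bright median 42 lower and 32 higher. The array medians were signals of 20.5 untreated, 17.4 at 6 h and 17.2 at 24 h. They lie near the floor of 16, so dim probe sets set the size of the shift made by that centring.

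The only error that can be estimated within the comparison is how far several probe sets for 1 gene differ. Over the 1860 bright genes with several bright probe sets this pooled SD was 0.18 on the log2 scale. It covers probe error and isoforms but not the variation between cultures. Control probe sets also compare the 3′ and 5′ ends of 2 transcripts. The log2 ratio of 3′ to 5′ signal for ACTB was 2.25 untreated, 2.55 at 6 h and 2.33 at 24 h. For GAPDH it was 0.24, 0.20 and 0.32. The share of this 3′ bias in the differences was not tested. Of the 61 lower genes 17 had several bright probe sets; all of these were negative for the 17, and all passed 2-fold for 10. Of the 23 higher genes 4 had several, positive in all 4 and past 2-fold throughout for 1, FRMD6. Large differences were commonest among dim genes. Below a signal of 32, 9.59% of measured genes were lower by 2-fold or more and 2.97% higher, against 0.645% and 0% in the highest class of signal. Some means over probe sets given below include such dim probe sets, as for PTPRO and RUBCN, and are uncertain for that reason.

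**Figure D1:**
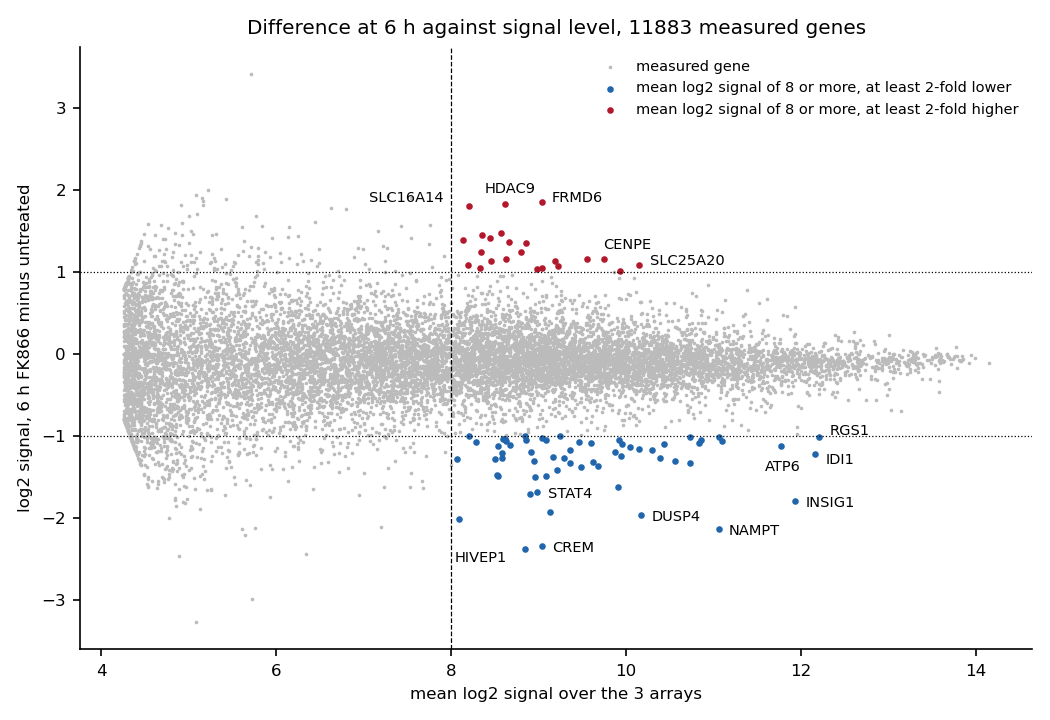
Each point is 1 of 11883 measured genes, with its mean log2 signal over the 3 arrays on the x axis and its log2 signal at 6 h minus untreated on the y axis. The dashed line marks the mean log2 signal of 8 and the dotted lines 2-fold; right of the dashed line 61 genes lie at or below -1 (blue) and 23 at or above 1 (red), and the spread narrows towards high signal.

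The enzyme that FK866 inhibits was itself among the genes with the largest decrease in signal. NAMPT read 5473, 1248 and 1422 on the untreated, 6 h and 24 h arrays, the order used for every trio of signals from here on. The 6 h signal was thus 4.38-fold below the untreated one, a difference of -2.13. Its 3 bright probe sets ranged from -2.43 to -1.97. The other bright genes of NAD synthesis differed less. NMRK1, the nicotinamide riboside kinase that feeds NAD synthesis without NAMPT, read 1360.5, 823 and 942 (-0.73). NADK, which phosphorylates NAD to NADP in the cytosol, differed by -0.35, and NADK2, the mitochondrial form, read 281, 429 and 310.4 (0.61), higher at 6 h than on both other arrays. NNT, the mitochondrial transhydrogenase, differed by -0.37. Of the 5 bright genes on that list 1 was at least 2-fold lower and 0 higher. Among 6 bright NAD consumers none reached 2-fold. SIRT1, a deacetylase, differed by -0.40, PARP1, the main poly-ADP-ribose polymerase of the DNA damage response, by -0.13, and CD38, an NAD glycohydrolase on the plasma cell surface, by 0.09.

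CREM and PDE4B, which belong to cyclic AMP signalling, were also lower. Cyclic AMP activates protein kinase A, which phosphorylates CREB, and CREB drives genes with a cyclic AMP response element. CREM is a relative of CREB whose internal promoter yields short repressor forms and carries such elements. Its brightest probe set read 2973, 587 and 83.7, a 5.06-fold decrease at 6 h (-2.34) and a further step down at 24 h. The 4 bright CREM probe sets ran from -2.34 to -0.30: 3 were below -2, while the fourth read 650.1, 527 and 376. Which transcripts each detects was not examined, and both kinds of value occur among probe sets not marked as shared: the fourth is one, and a dimmer one read 426, 80.0 and 26.7 (-2.41).

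The most 3′ of the 7 CREM starts in the RefSeq table (GRCh38.p14) was searched for the palindrome TGACGTCA, the full cyclic AMP response element, which reads the same on both strands. Its 250 upstream bases are shown because the element lies at -50 (capitals), counted from -1 next to the start.
CREM, chr10:35195652-35195901, plus strand: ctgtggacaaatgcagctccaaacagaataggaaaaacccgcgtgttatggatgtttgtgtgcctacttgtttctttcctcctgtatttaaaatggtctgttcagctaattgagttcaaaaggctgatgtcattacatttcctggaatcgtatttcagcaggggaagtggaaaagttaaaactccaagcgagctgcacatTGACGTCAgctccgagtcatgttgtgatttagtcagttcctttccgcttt
In the 250 bases before the most 5′ start, this motif was found for 1.77% of all 27305 genes of the table and 3.63% of the 4737 bright genes, of 5530, that the table holds. Among lower genes it was found in 1 of 44 (2.27%), and in 1 of 22 higher genes (4.55%). No share was computed for more 3′ starts, so these percentages are no background for the CREM match shown. The match is a description of the sequence and not a measured site.

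PDE4B, a phosphodiesterase that degrades cyclic AMP, read 725, 179 and 157, a difference of -2.01. Its relative PDE4D, below the bright limit, read 124, 69.6 and 46.8 (-0.83). PDE7A, the other bright phosphodiesterase of the list, read 691, 682 and 429 (-0.02). PDE4B and PDE4D were thus lower on the 2 treated arrays, while PDE7A hardly differed at 6 h. PRKACB, a catalytic subunit of protein kinase A, stood on the other side, with 707, 1420.3 and 934 (1.01). Its kept probe sets disagreed in direction, from -0.80 to 1.06, and their mean was 0.42. The one at -0.80 was dim and read 41, 23.6 and 44.5. Of 13 bright phosphodiesterases, kinase subunits, anchors and cyclases 1 was at least 2-fold lower and 1 higher, and the list median of -0.05 lay close to that of all bright genes. Among 6 bright CREB family members and coactivators 5 lay below the bright median, with a list median of -0.40. EP300 and CREBBP, the acetyltransferases that CREB recruits, differed by -0.51 and -0.34, while the 4 bright probe sets of CREB1 itself lay on both sides of 0, from -0.25 to 0.15.

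DUSP4, a nuclear phosphatase that switches off MAP kinases, read 2919, 749.6 and 706 (-1.96). Its 3 bright probe sets ranged from -2.76 to -1.66. DUSP5, another nuclear phosphatase for ERK, read 6033, 3265 and 3216 (-0.89), whereas DUSP6, the cytoplasmic ERK phosphatase, read 219, 325 and 344 (0.57), with a second bright probe set at 164, 367 and 379 (1.16). The signals of these ERK phosphatases therefore differed in direction at 6 h. RGS1 and RGS2 accelerate GTP hydrolysis by G proteins and so end receptor signals. RGS1 read 7973, 3959 and 3333 (-1.01) and RGS2 3854, 1846 and 1469 (-1.06). P2RY6, a receptor for extracellular nucleotides, read 745, 353 and 115 (-1.08), and its 24 h signal was the lowest of the 3. The chemokine receptors CCR2 and CCR1 differed by -0.79 and -0.46, and CXCR4, the receptor that retains plasma cells in marrow, by -0.33 at 6 h and -1.58 at 24 h. At the upper end of this list CCR10 differed by -0.21, P2RY8 by -0.11, GNAS by -0.07 and P2RY10 by 0.15. Of its 12 bright genes 3 were at least 2-fold lower and 0 higher. Below the bright median lay 10, and the list median was -0.40. The 3 were RGS1, RGS2 and P2RY6, and all fell short of 2-fold after centring on array medians. Centring raises every difference equally and moved one of -1.22 to -0.98.

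Regulators of small GTPases stood on both sides. RAPGEF2, an exchange factor that activates RAP1, read 2054, 669 and 646 (-1.62). Without shared probe sets it was at -0.99, from a dim one that read 31.7, 5 and 9.9. Both treated signals of that probe set lay below the floor, so the floor limits the size of its difference. RASA2, a RAS GTPase-activating protein named after its values were seen, read 2884, 1398 and 1600.3 (-1.04), and its 3 bright probe sets all passed 2-fold. RASGRP3, a RAS exchange factor opened by diacylglycerol, was higher with 341, 748 and 775 (1.13). PLCL2, a phospholipase C-like protein that lacks catalytic activity, read 391, 822 and 668 (1.07), or 0.86 as the mean over its probe sets. The activator RASGRP3 and the inhibitor RASA2 thus differed in opposite directions on the 6 h array.

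The bright genes of cholesterol synthesis were all lower at 6 h. Sterol supply is sensed in the endoplasmic reticulum, where INSIG proteins hold back SCAP and the SREBP factors that drive these genes. Of 20 listed enzymes 11 were bright; 11 of 11 lay below the bright median and 2 passed 2-fold. The list median was -0.57 against -0.09 for all bright genes, and it stayed below the bright median under the 4 alternatives that could move it relative to other genes. These were quantile normalization, log2(signal + 32), the mean over probe sets and the removal of shared probe sets. Centring, subtraction of the bright median and the higher floor left every list's distance from the bright median as it was. HMGCS1, the HMG-CoA synthase that opens the mevalonate pathway, read 929, 373 and 1416 (-1.32). IDI1, the isopentenyl diphosphate isomerase, read 6558, 2822 and 5189 (-1.22), but was at -0.98 after centring on array medians. The mean over its probe sets, dim ones included, was -0.78. Without shared probe sets it was at -0.66, from a dim one that read 72.4, 45.9 and 44.4. LSS, which cyclises squalene epoxide to lanosterol, read 1178, 646 and 1310.3 (-0.87). In these 3 genes the untreated and 24 h signals were both above the 6 h signal. SC5D, a desaturase near the end of the pathway, differed by -0.89, MSMO1, which removes methyl groups from sterols, by -0.57, and EBP, a sterol isomerase, by -0.22, the smallest difference of the list. SQLE, the squalene epoxidase, fell outside the bright limit and read 239, 55.1 and 241 (-2.12).

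INSIG1, the sterol sensor that is also a target of SREBP, read 6652, 1918 and 4718, 3.47-fold lower at 6 h (-1.79), with 3 bright probe sets from -2.31 to -1.48. INSIG2, its relative, read 640.4, 811 and 612 (0.34), so the pair differed in direction. SCAP, the escort protein of SREBP, differed by -0.42, and SOAT1, which esterifies cholesterol for storage, by -0.82. SREBF1, below the bright limit, read 129.7, 68.4 and 60.1 (-0.92). MBTPS2, the protease that releases SREBP, was higher with 609, 849 and 847 (0.48). The 9 bright genes of sterol sensing and transport had a median of -0.42, and 1 of the same 4 alternatives placed it above the bright median. In fatty acid synthesis SCD, the stearoyl-CoA desaturase, read 2268, 904 and 2379.5 (-1.33), or -0.94 as the mean over its probe sets. LPIN1, a phosphatidate phosphatase, differed by -0.71, ACLY, which makes cytosolic acetyl-CoA, by -0.55, and the elongase ELOVL5 by -0.46. Of these 7 bright genes 5 lay below the bright median and 1 passed 2-fold, with a list median of -0.46.

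The promoters of HMGCS1 and INSIG1 are shown because both genes had large decreases in lists whose medians lay below that of all bright genes. The CCAAT box, bound by NF-Y, which works with SREBP at sterol-regulated promoters, was searched as CCAAT on both strands, so that it can appear as ATTGG (capitals). Each run is the 250 bases before the most 5′ RefSeq start (GRCh38.p14), in the direction of transcription.
HMGCS1, chr5:43313413-43313662, minus strand: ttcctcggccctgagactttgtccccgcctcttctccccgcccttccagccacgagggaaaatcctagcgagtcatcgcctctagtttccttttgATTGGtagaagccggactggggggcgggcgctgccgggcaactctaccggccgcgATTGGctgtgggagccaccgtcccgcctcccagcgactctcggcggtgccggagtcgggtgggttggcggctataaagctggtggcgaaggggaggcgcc
INSIG1, chr7:155297628-155297877, plus strand: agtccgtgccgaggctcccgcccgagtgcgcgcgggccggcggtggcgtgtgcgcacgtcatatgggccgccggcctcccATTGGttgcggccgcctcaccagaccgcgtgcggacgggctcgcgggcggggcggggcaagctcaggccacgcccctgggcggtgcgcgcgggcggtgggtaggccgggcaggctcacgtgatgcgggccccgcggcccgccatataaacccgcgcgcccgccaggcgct
HMGCS1 has 2 matches, at -155 and -100, and INSIG1 has 1, at -170. A match was found in 8 of the 10 bright cholesterol genes with a promoter in the table (80%), in 37.8% of bright genes and in 33.0% of all genes. The sterol element searched as TCACNCCAC on both strands was found in 0 of the 10, and in 0.823% of bright genes; other spellings of the element were not searched.

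SEC24D, a cargo adaptor of COPII vesicles that leave the endoplasmic reticulum, read 926, 388 and 525 (-1.26). SEC24B and SEC24C, its paralogues, differed by 0.06 and 0.01, and SEC23B, the inner coat partner, by -0.53. The bright genes of COPII, COPI and Golgi traffic, 24 in number, had a median of -0.09, close to all bright genes, and 1 passed 2-fold. Outside the lists, glycosylation and Golgi genes came up among those past 2-fold. MAN1C1, a mannosidase that trims N-glycans in the Golgi, read 1349, 482 and 247 (-1.49). GALNT3, which starts mucin-type O-glycans, read 1433, 551 and 471 (-1.38). Its second kept probe set, near the floor at 25.3, 32.6 and 24.2, was at 0.37 and their mean at -0.51. GOLGA8A, a golgin with near-identical copies that share its probes, read 1329.5, 529.7 and 406 (-1.33), and this value is uncertain for that reason. Chaperones of the endoplasmic reticulum differed less. XBP1, the factor that builds the secretory apparatus of plasma cells, read 8109.6, 5511 and 4695 (-0.56). EDEM1, which directs misfolded glycoproteins to degradation, and DNAJB9, a co-chaperone of BiP, differed by -0.65 and -0.64, and HSPA5, which is BiP, by -0.22. Of 26 bright genes of this list 16 lay below the bright median, none passed 2-fold, and the list median was -0.19.

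The lower genes also held proteins of the cell membrane, brought together here after their values were seen, with no list behind them. ITGB8, an integrin subunit whose complex activates latent transforming growth factor beta, read 1445, 378 and 327 (-1.93). SCNN1G, a subunit of the epithelial sodium channel, read 1089, 332 and 302 (-1.71). GJB2, the gap junction protein connexin 26, read 1624, 632 and 542 (-1.36). For these 3 genes both treated arrays lay below the untreated one by at least 2-fold. FAT1, an atypical cadherin, read 1907, 829 and 527 (-1.20), and PTPRO, a receptor tyrosine phosphatase, 1743, 737 and 744 (-1.24). ATP2B1, the plasma membrane calcium pump, read 946, 382 and 333 (-1.31), with a second bright probe set at -0.89. CD55 shields cells from complement and read 617, 254 and 305 (-1.28), but its other bright probe set was at -0.34. RAPH1, an actin regulator of the leading edge, differed by -1.49, HOMER1, a scaffold for glutamate and inositol trisphosphate receptors, by -1.21 with its second bright probe set at -1.23, RELL1, of the RELT receptor family, by -1.13, and CALHM6, of a family of membrane channels, by -1.12. PTPRO, ATP2B1, CD55, RAPH1 and CALHM6 did not reach 2-fold as the mean over their probe sets, and FAT1, HOMER1, RELL1 and CALHM6 did not after centring on array medians.

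CXCL10, a chemokine induced by interferon, read 3303, 1366 and 538 (-1.27), and CCL4, a chemokine that attracts T cells and monocytes, 828, 344 and 858 (-1.27). At 24 h the signal of CXCL10 was lower still, while that of CCL4 was near the untreated value. IL21R, the interleukin 21 receptor, read 794, 285 and 223 (-1.48). STAT4, a signal transducer best known in T helper cells, read 1571, 489 and 171 (-1.68), the third value being the lowest. IGFBP3, which binds insulin-like growth factors, read 859.6, 304 and 476 (-1.50), and its dimmer probe set gave -1.50 as well. NFKB1, a subunit of NF-kB, differed by -0.69, and TNFAIP3, which dampens NF-kB signalling, by 0.39. Of 12 bright NF-kB genes 2 were at least 2-fold lower, both of them the chemokines above, and the median was -0.23. In the 15 bright genes of interleukin 6, JAK and STAT signalling, STAT4 was the 1 gene past 2-fold lower and 0 were higher, with a median of -0.20. STAT3 differed by -0.22, IL6ST, the shared signalling receptor, by -0.28 and PIM3, a survival kinase, by 0.77. GBP1, a GTPase induced by interferon, was higher with 504, 1128 and 747 (1.16), and its 3 bright probe sets ranged from 0.96 to 1.16. IRF1, an interferon-induced transcription factor, read 654, 375 and 318 (-0.80). The 6 bright interferon-stimulated genes had a median of 0.24 and none passed 2-fold; that list holds neither GBP1 nor CXCL10.

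Transcription factors and chromatin proteins were headed by the largest decrease among bright genes. HIVEP1, a large zinc finger protein that binds enhancers, read 1210.4, 232 and 349.9, 5.22-fold lower at 6 h (-2.39). A second, dimmer probe set of HIVEP1 was at -0.22. TLE3, a corepressor of the Groucho family, read 994, 373 and 558 (-1.42). KMT2E, a SET domain protein that reads histone marks at promoters, read 1816, 815 and 1000 (-1.16), with its other bright probe sets up to -0.74. TEAD1, the DNA-binding partner of YAP, read 2237, 1042 and 1127 (-1.10). RUNX3, named after its values were seen, read 845, 414 and 419.7, and both bright probe sets lay between -1.03 and -1.02; it is a factor of lymphocyte development. HEXIM1, which inhibits the elongation factor P-TEFb, read 812, 404 and 297 (-1.01), while EAF2, a partner of the ELL elongation factors, read 1434, 2101 and 1487 (0.55). Of 11 bright elongation genes 1 passed 2-fold. ZSWIM6, BTBD3 and CCDC71L differed by -1.19, -1.27 and -1.28; MACC1, a regulator of the MET receptor gene, differed by -1.11. NACA4P, a pseudogene whose probes can be shared with its parent gene NACA, differed by -1.17, an uncertain value. KMT2E, ZSWIM6, NACA4P, MACC1, TEAD1, RUNX3 and HEXIM1 were short of 2-fold after centring on array medians. As the mean over their probe sets KMT2E, CCDC71L and HEXIM1 were short of it. FOSL2, an AP-1 subunit below the bright limit, read 242, 44.6 and 49.8 (-2.44), whereas JUN, its partner, read 1049.9, 1484 and 1008 (0.50).

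Genes of autophagy, stress and growth control lay on both sides. RUBCN, or Rubicon, an inhibitor of autophagosome maturation, read 2687, 1084 and 1189.9 (-1.31), with its 2 bright probe sets past 2-fold and the mean over 4 probe sets at -0.81. SQSTM1, the autophagy receptor p62, named after its values were seen, read 3641, 1799 and 1483 (-1.02), but its 5 kept probe sets ran from -1.02 to 0.33. ATG4C, a protease that prepares ATG8 proteins for autophagosomes, was higher with 206, 551 and 372 (1.42). GADD45A, a stress gene shared by the lists of p53 and FOXO targets, read 2596, 1288 and 1482 (-1.01), and ARRDC3, an arrestin-like FOXO target, 1305, 619 and 436 (-1.08). BCL2L11, which encodes the pro-apoptotic protein BIM, read 2165, 1228 and 1192 (-0.82), and SESN1, a sestrin that restrains mTORC1, was higher with 663, 979 and 1009 (0.56). MCL1, a survival protein of plasma cells, differed by -0.07. None of 8 bright BCL2 family genes and none of 19 bright genes of mTORC1 and AMPK passed 2-fold. The ATF4 targets, which supply amino acids in the integrated stress response, leaned lower. Of 14 bright members 12 lay below the bright median, none passed 2-fold, and the median was -0.34. The amino acid transporter subunits SLC7A5 and SLC3A2 differed by -0.83 and -0.69, asparagine synthetase, ASNS, by -0.55 and ATF4 itself by -0.23. Of the 14 bright glucocorticoid-responsive genes, whose receptor is a drug target in myeloma, none passed 2-fold; the receptor NR3C1 read 3199, 1740.2 and 1964 (-0.88) and its target TSC22D3 1058, 655 and 432 (-0.69).

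Transcripts of the mitochondrial genome were lower in every gene measured. This set was added after the values were seen. They encode core subunits of the respiratory chain and ATP synthase. Its 7 genes were all bright and had a median of -0.57, and 10 of 10 kept probe sets were negative, from -1.17 to -0.24. COX3, a cytochrome oxidase subunit, read 1184, 527 and 457 (-1.17), and ATP6, an ATP synthase subunit, 6146, 2833 and 2483 (-1.12). ND2 and ND4, subunits of complex I, read 6384, 3238 and 3012 (-0.98) and 9213, 6225 and 5640.4 (-0.57). In all 4 genes the 6 h and 24 h arrays were close together and below the untreated array. COX1 and COX2, further cytochrome oxidase subunits, differed by -0.47 and -0.33, and ND6, of complex I, by -0.38. The median ranged from -0.68 to -0.33 under the 7 alternatives, but COX3 was below 2-fold after centring on array medians. ATP6 was below it after quantile normalization, centring or averaging of probe sets. Without shared probe sets ATP6 was at -0.24, from a probe set near the floor at 28.9, 24.4 and 9.8. The probe sets of mitochondrial genes can be shared with nuclear copies of mitochondrial sequence. The nuclear genes of the respiratory chain and ATP synthase, 38 of them bright, had a median of -0.09, equal to all bright genes to 2 decimals, with none past 2-fold.

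**Figure D2:**
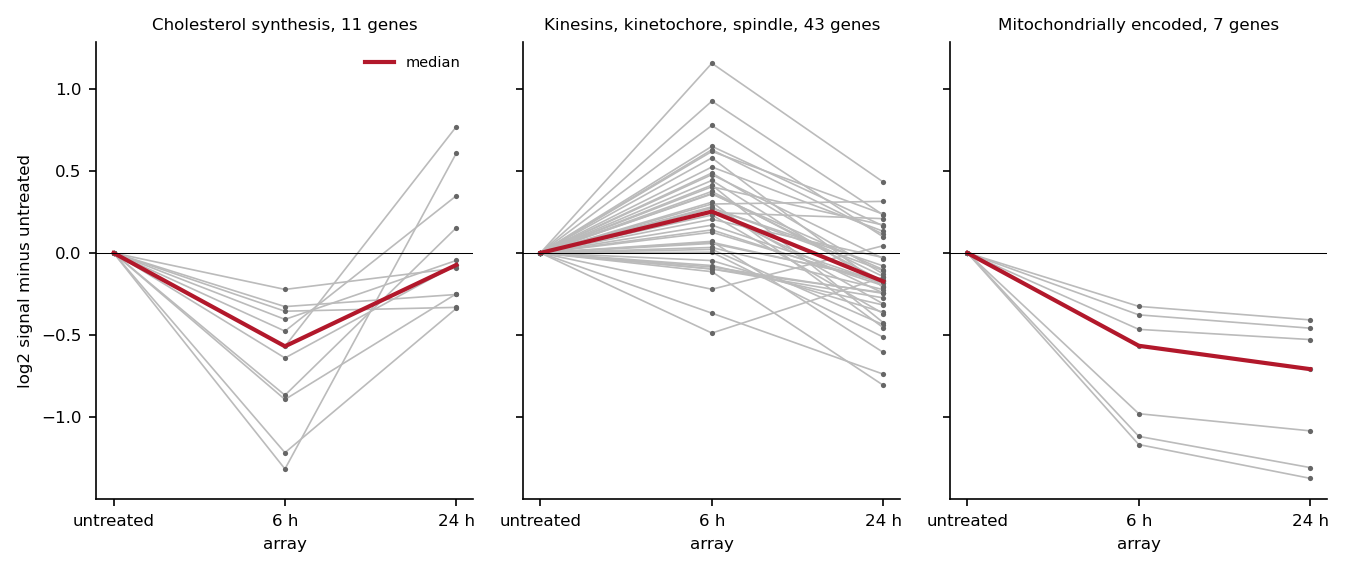
Log2 signal minus the untreated array for the bright cholesterol synthesis genes (11), the bright kinesin, kinetochore and spindle genes (43) and the mitochondrially encoded genes (7), at 0 on the untreated array, then at 6 h and 24 h; grey lines are genes and the red line their median. At 6 h all 11 and all 7 genes of the outer panels lie below 0, and the median of the middle panel is 0.25.

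The 23 higher genes started from untreated signals between 145 and 774. FRMD6, a FERM domain protein upstream of the Hippo kinases, read 258, 929 and 606, 3.61-fold higher at 6 h (1.85), and its second bright probe set gave 1.48. HDAC9, a class II histone deacetylase, read 173, 618 and 569 (1.83). Its second kept probe set, dim at 64.9, 34.3 and 72, was at -0.92 and their mean at 0.46. SLC16A14, an orphan member of the monocarboxylate transporter family, read 145, 506 and 350.9 (1.81). In these 3 genes both treated arrays were above the untreated one. IRAG2, a lymphoid protein of the endoplasmic reticulum membrane, read 209.7, 582 and 452 (1.47), with its second bright probe set just under 2-fold at 0.999. TCAF1, which associates with TRP channels, read 177, 484 and 406 (1.45), or 0.71 as the mean of its probe sets. GUCY1B1, the beta subunit of the nitric oxide receptor guanylyl cyclase, read 168, 439.5 and 301 (1.39), and its second kept probe set gave 1.32. SNCAIP, the alpha-synuclein partner synphilin, read 207, 533 and 601 (1.37), and JAKMIP1, which binds Janus kinases and microtubules, 294, 749 and 457 (1.35).

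The other higher genes were of mixed function. PDGFC, a platelet-derived growth factor ligand, read 205, 487 and 346 (1.25). MAML2, a coactivator of Notch, read 252, 595 and 596 (1.24), whereas JAG1, a Notch ligand, read 418, 209 and 295 (-1.004). The second bright probe set of JAG1 was at -0.58. TGFBR2, the type II receptor of transforming growth factor beta, read 226, 494 and 393 (1.13). Its type I partner TGFBR1 read 620.1, 312 and 323 (-0.99), so the receptor pair differed in opposite directions. Of the 10 bright genes of this pathway 9 lay below the bright median and TGFBR2 alone was past 2-fold; SMAD1 and SKIL, a signal carrier and a repressor, differed by -0.56 and -0.55. SLC25A20, which carries acylcarnitines into mitochondria for oxidation, read 774, 1640.3 and 1158 (1.08). SELENOP, the selenium transport protein, read 277, 619 and 365 (1.16). Without shared probe sets it was at 0.51, from a probe set near the floor at 18.1, 25.7 and 14. SLC35E3, an orphan solute carrier, differed by 1.09 with its second kept probe set at -0.81. That probe set read 28.1, 5.8 and 1.6, so the floor limits the size of its difference. EFCAB7, a ciliary protein, differed by 1.05, MTMR10, of the myotubularin family, by 1.05 and SHROOM3, an actin-binding protein, by 1.03 with its second bright probe set at 0.31. These last 4, like PRKACB, fell just short of 2-fold on the log2(signal + 32) scale.

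**Figure D3:**
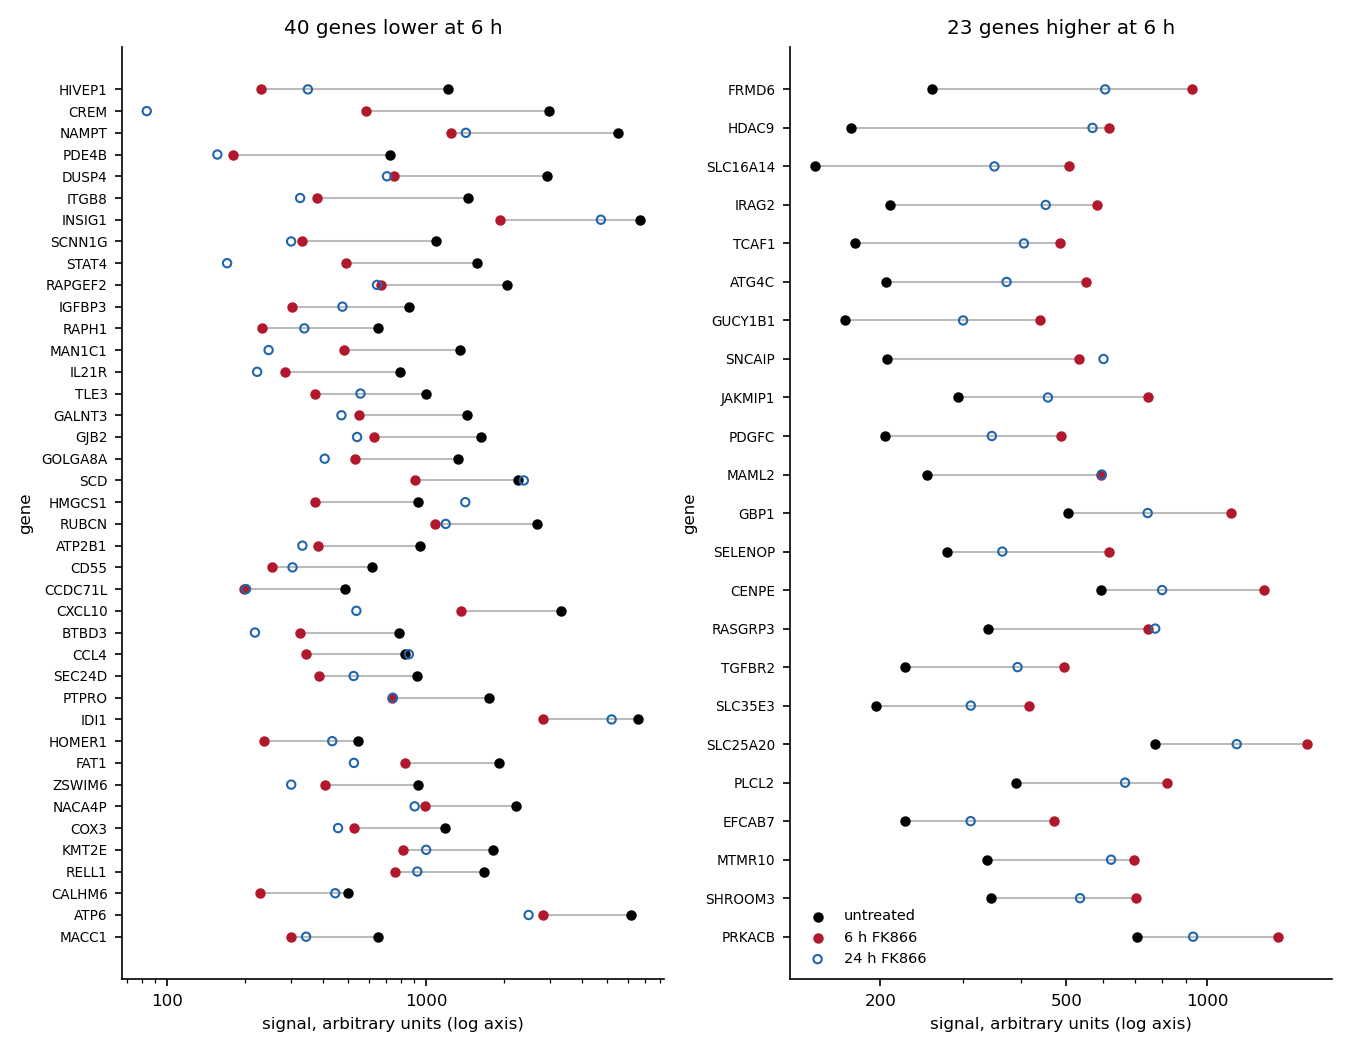
Signals of the 40 lower genes with the largest differences (left) and all 23 higher genes (right) on log axes; black points are untreated cells, red 6 h and open blue 24 h, with a grey line from untreated to 6 h. Every red point is at least 2-fold from its black point, and the open points of SCD, HMGCS1 and CCL4 lie at or above the black ones.

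**Figure D4:**
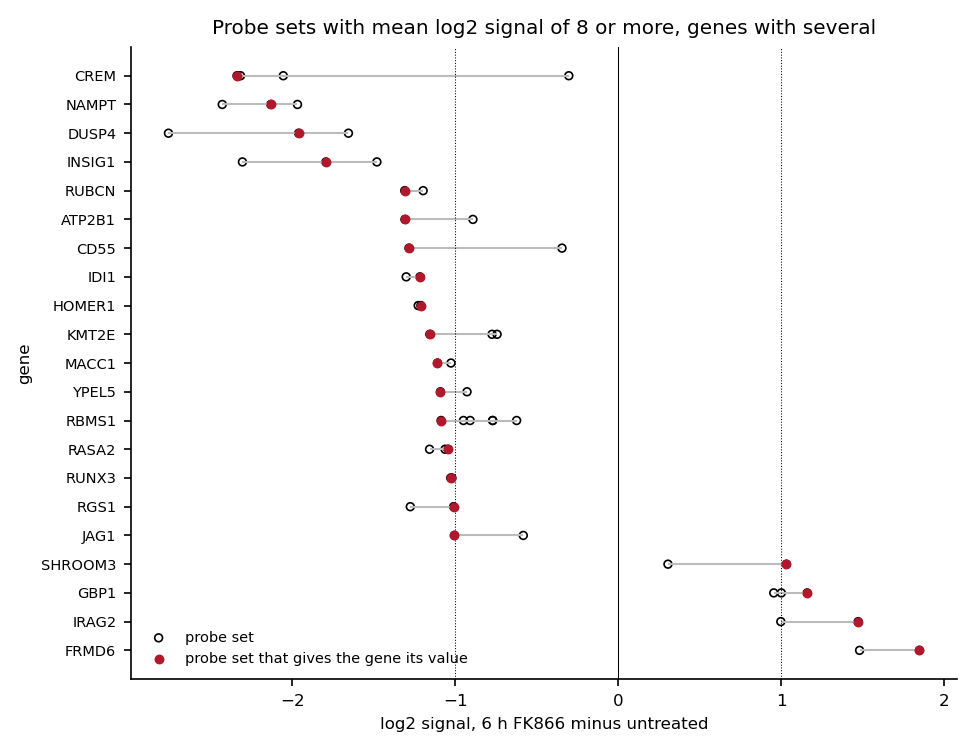
Log2 signal at 6 h minus untreated for each bright probe set of the 21 genes past 2-fold with several; the red point gives the gene its value, open points are the others, and dotted lines mark 2-fold. All points of a gene lie on one side of 0, and 11 genes have every point past 2-fold.

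Genes of mitosis formed the list with the highest median. Kinesins and kinetochore proteins attach and move chromosomes, and their transcripts peak as cells enter mitosis. Of 43 bright members 37 lay above the bright median and 1 passed 2-fold, with a list median of 0.25. CENPE, the kinetochore motor, read 594, 1324 and 802 (1.16). KIF14, a motor of cytokinesis, read 741, 1406 and 869.6 (0.92), and ASPM, a spindle pole protein, 2192, 3754 and 2345 (0.78). All 3 had their highest signal at 6 h. DLGAP5 and CENPF, of the spindle and kinetochore, differed by 0.63 and 0.62, while KIF2C, a microtubule depolymerase, and MIS12, of the inner kinetochore, differed by -0.37 and -0.49. Mitotic cyclins and kinases had a median of 0.22 over 17 bright genes with none past 2-fold. NEK2, a centrosome kinase, read 1448, 2364 and 1656 (0.71), AURKA, a spindle kinase, 1017, 1596 and 1186 (0.65) and CCNB1, cyclin B1, 2256, 3119 and 2455 (0.47). CCNA2, cyclin A2, differed by -0.38, and the 3 bright probe sets of CDK1, their kinase partner, lay between -0.10 and 0.34. Of 16 bright genes of the anaphase-promoting complex and mitotic exit the median was -0.00; CDC20, its activator, read 825, 1315 and 986 (0.67) and FBXO5, its inhibitor, 1419.5, 914 and 838 (-0.64).

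Genes of the G1 and S phases lay on the other side. Of 31 bright members 23 lay below the bright median of -0.09, 1 passed 2-fold, and the list median was -0.25. CCNE2, cyclin E2, read 587, 286 and 347 (-1.04), although a second, dimmer probe set was at 0.01. CCND2, a D cyclin, read 10658, 6655 and 8272 (-0.68), and CDK6, a D cyclin partner, 2819, 1834 and 2365 (-0.62). CDT1, which licenses replication origins, differed by -0.57, PCNA, the polymerase clamp, by -0.38, while the 2 bright probe sets of MCM5, a helicase subunit, were at -0.12 and 0.14. Both cell cycle lists kept their side of the bright median under the 4 alternatives that could move them.

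Mitotic promoters often pair CCAAT boxes with a cell cycle homology element. The promoters of ASPM and CDC20 are shown with both motifs in capitals, CCAAT and TTTGAA, each searched on both strands so that they can appear as ATTGG and TTCAAA. The runs are again the 250 bases before the most 5′ RefSeq start (GRCh38.p14).
ASPM, chr1:197146670-197146919, minus strand: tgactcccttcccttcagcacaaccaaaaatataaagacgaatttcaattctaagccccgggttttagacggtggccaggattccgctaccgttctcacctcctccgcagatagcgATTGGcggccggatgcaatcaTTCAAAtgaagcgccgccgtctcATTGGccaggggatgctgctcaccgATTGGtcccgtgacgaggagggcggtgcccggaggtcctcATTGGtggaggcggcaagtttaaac
CDC20, chr1:43358731-43358980, plus strand: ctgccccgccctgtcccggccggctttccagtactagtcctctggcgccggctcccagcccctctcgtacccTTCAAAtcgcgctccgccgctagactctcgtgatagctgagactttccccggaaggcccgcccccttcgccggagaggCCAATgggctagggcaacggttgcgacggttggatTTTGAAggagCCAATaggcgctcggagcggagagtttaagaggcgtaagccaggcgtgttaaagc
ASPM has 5 matches, the nearest at -25, and CDC20 has 4, at -178, -100, -65 and -55. CCAAT was found in 27 of the 38 kinesin and kinetochore genes with a promoter in the table (71.1%) and TTTGAA in 16 (42.1%), against 37.8% and 9.18% of bright genes. Among all genes of the table the shares were 33.0% and 13.6%. The share in G1 and S phase genes was 57.7% for CCAAT and 7.69% for TTTGAA. CDC20 was taken from the list of the anaphase-promoting complex and mitotic exit, whose median was -0.00. No share was computed for that list.

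Heat shock proteins and cochaperones lay slightly above the bright median, with a median of -0.01 over 18 genes, 12 of them above it and none past 2-fold. BAG3, a cochaperone of HSP70, read 674, 989.7 and 493 (0.55), DNAJB1, an HSP40, 652, 949 and 362 (0.54) and HSPH1, a nucleotide exchange factor, 1847, 2684 and 1882 (0.54). These 3 were highest at 6 h. The constitutive chaperones HSP90AB1 and HSPD1 differed by -0.05 and -0.06, the latter with bright probe sets up to 0.05. HSPA1A and HSPA1B, near-identical genes of inducible HSP70, share a probe set that cannot separate them; it read 213, 1026 and 79.6, 4.81-fold higher at 6 h. A second one, assigned to HSPA1L as well, read 586, 1439 and 385. The promoter of HSPA1A is shown for its heat shock element, a pair of inverted units searched as GAANNTTC (capitals), which is its own reverse complement.
HSPA1A, chr6:31815293-31815542, plus strand: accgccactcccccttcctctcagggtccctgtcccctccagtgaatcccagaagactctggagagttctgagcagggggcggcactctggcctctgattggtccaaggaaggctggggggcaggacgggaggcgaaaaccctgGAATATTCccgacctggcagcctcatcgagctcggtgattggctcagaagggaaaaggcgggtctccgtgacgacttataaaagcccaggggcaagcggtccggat
It has 1 match, at -106. The pair was found in 3 of 16 heat shock genes with a promoter in the table (18.8%), 3.84% of bright genes and 5.85% of all genes. The median GC content of the same 250 bases was 68% over 44 lower genes, 55.8% over 22 higher genes and 64.8% over bright genes.

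Further lists gave these values. Splicing regulators had a median of -0.25 over 28 bright genes, 19 of them below the bright median and none past 2-fold; SRSF6, an SR protein, read 3162, 1914 and 2201 (-0.72) and SRSF3 9000.2, 6085 and 7445 (-0.56). Circadian clock genes had a median of -0.47 over 5, with NR1D2, a nuclear receptor that represses clock genes, at -0.92. The Krueppel-like factors had a median of 0.24 over 6, but KLF3 was at -0.98. Cytosolic ribosomal proteins, 36 bright genes, ranged only from -0.31 to 0.02 around a median of -0.08. In the AP-1 family the median was -0.02, in CREB-responsive genes -0.10, in FOXO factors and targets -0.07 and in p53 targets 0.01. It was -0.12 in Notch and Wnt genes, 0.02 in Hippo and FERM genes, -0.18 in the BCL2 family and -0.00 in mTORC1 and AMPK genes. Histone demethylases had 0.01, histone methyltransferases -0.14, elongation factors -0.16, aminoacyl-tRNA synthetases -0.14, antigen presentation -0.15 and NAD consumers -0.03. The medians of NAD synthesis and glucocorticoid-responsive genes were -0.37 and -0.10. ERK feedback and monocarboxylate transporter lists had 4 bright genes each, too few for a median here. Of the 40 lists with at least 5 bright genes 24 lay below the bright median and 16 above. Under the 4 alternatives that could move a list relative to the bright median, 29 kept their side and 11 turned in at least 1, namely sterol sensing, AP-1, FOXO, p53, Hippo, ribosomal proteins, respiratory chain, COPII and COPI traffic, glucocorticoid response, plasma cell identity and the cAMP list.

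**Figure D5:**
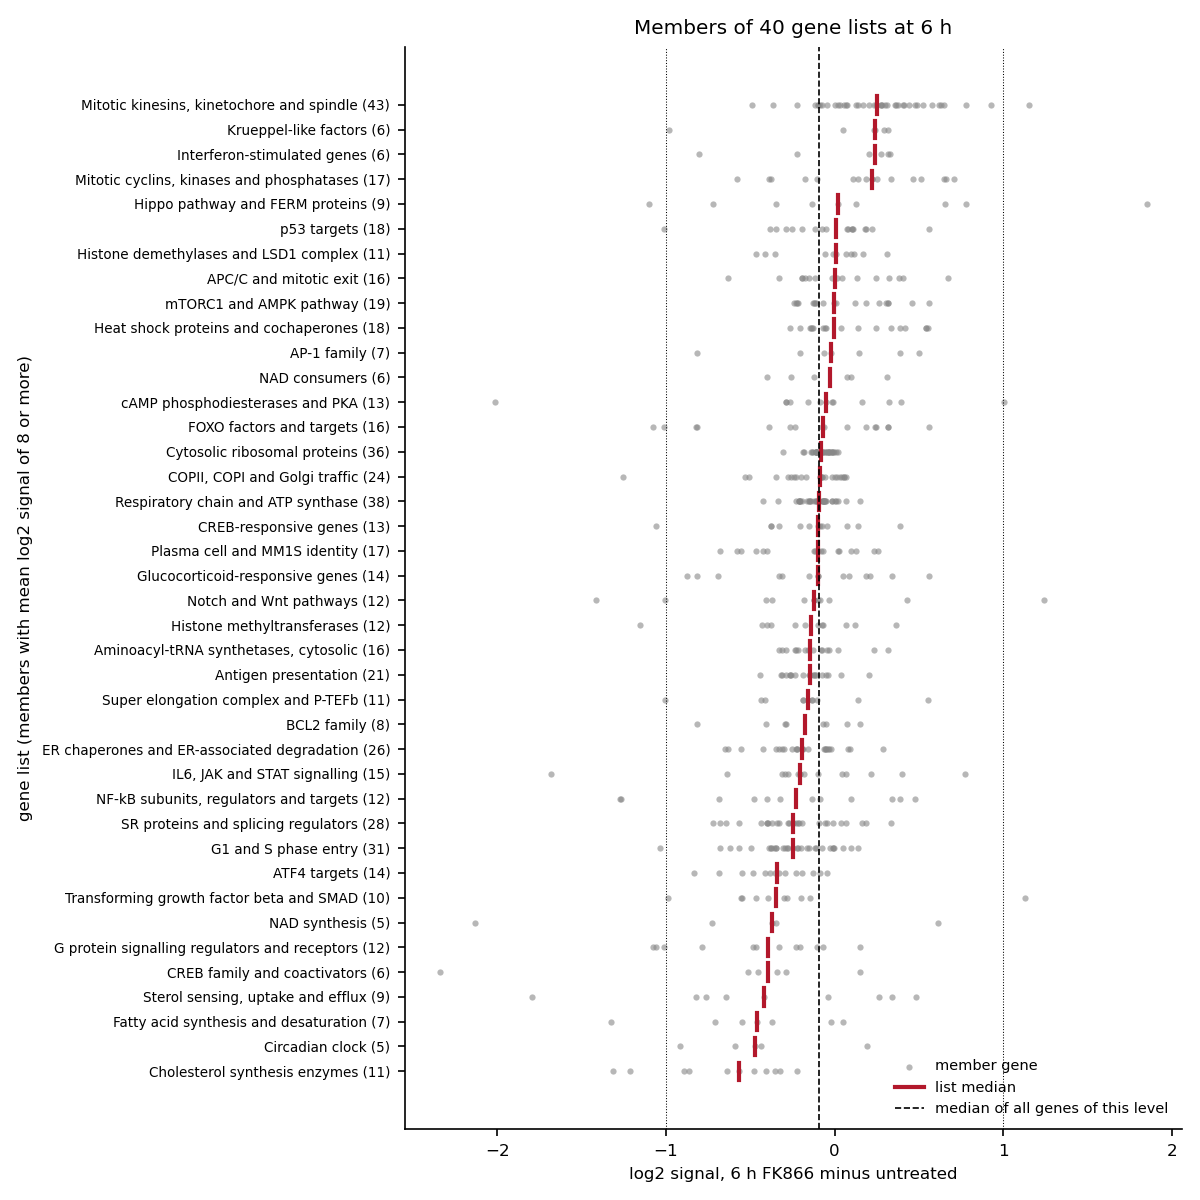
Log2 signal at 6 h minus untreated for bright members (grey points) of the 40 gene lists with at least 5, with each list's median in red, the bright median of -0.09 dashed and 2-fold dotted. Cholesterol synthesis has the lowest median, -0.57, and kinesins, kinetochore and spindle the highest, 0.25.

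The cells carried the markers of plasma cells. Of 20 plasma cell and MM1S markers 17 were bright on each array, with a summed signal between 80038 at 6 h and 90108 in untreated cells, and a median difference of -0.10 at 6 h. SDC1, the surface proteoglycan CD138, differed by -0.12, TNFRSF17, the receptor BCMA, by 0.23 and IRF4, the factor that maintains plasma cells, by 0.26 at 6 h and 0.93 at 24 h. None of the markers of B cells, T and NK cells, myeloid cells or stroma and epithelium were bright. Their summed signals at 6 h were 363 over 9 B cell genes, 163 over 11 T and NK genes, 129.7 over 10 myeloid genes and 324 over 12 stromal and epithelial genes, against 528, 181, 115 and 302 in untreated cells.

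The size limit divides genes that hardly differ. Just past it on the lower side stood HEXIM1, JAG1 and SLFN11 at -1.01, -1.004 and -1.004, and just short of it TGFBR1, RBM33 and KLF3 at -0.99, -0.99 and -0.98. On the higher side PRKACB, SHROOM3 and MTMR10 at 1.01, 1.03 and 1.05 stood just past it and RCSD1, CXXC4 and DIPK1A at 0.96, 0.97 and 0.998 just short. By level, CCDC71L, PDE4B and GUCY1B1 were the genes past 2-fold just inside the mean log2 signal of 8, and NFKBIZ, USP32P2 and RAB11FIP1, at -1.19, -1.004 and -1.35, just outside. MLLT3, which belongs to the super elongation complex, also lay outside and read 68.6, 262 and 209.5 (1.93). On each side the genes just past and just short of 2-fold differ from each other by less than the probe set SD of 0.18.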

How the data were processed

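RNA from 3 MM1S cultures (untreated, 10 nM FK866 for 6 h, 10 nM FK866 for 24 h) was hybridised to 1 Affymetrix array each. The authors deposited 1 linear intensity per probe set and array; background correction, summarisation and scaling between arrays are not given in the sources used here, so a shift between arrays can move every difference. The number of arrays limits the precision. The table holds 54675 probe sets (62 controls); a 2016 platform annotation gave exactly 1 gene symbol to 41097, and only these name genes.

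Signals were floored at 16 and log2 transformed. A probe set was kept where its mean log2 signal reached the median of all non-control probe sets (a signal of 19.1), and a gene was represented by whichever kept probe set had the highest mean. No test was run with 1 array a group; genes are described by a size of 2-fold and lists by counts and medians. Named are 40 lower and all 23 higher genes among bright genes past 2-fold whose bright probe sets all differ one way. The 40 are those with the largest differences. Genes next to the limits are named too. Others come from the 4 lowest and 4 highest bright members of each list and from a fixed set including NAMPT, CREM and INSIG1. Not every gene of these last 2 groups is named, so the genes named from a list can lean to 1 side. Members and lists were chosen with earlier results of these data known. Alternatives changed the scaling, floor, probe set summary, level filter and size. The script was checked on simulated data. Promoters came from RefSeq (GRCh38.p14). Python 3.11.15, numpy 2.4.6, pandas 2.3.3 and matplotlib 3.10.9 were used.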

Additional observations from a re-analysis of the deposited data

Results flagged for a closer look

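Of 948 bright probe sets without a single gene name, which the gene counts leave out, 14 differed by at least 2-fold at 6 h, 11 lower (1.16%) and 3 higher (0.316%). These shares are near the 1.10% and 0.416% of bright genes. All 3 probe sets assigned to both MIR612 and NEAT1, a nuclear long RNA that builds paraspeckles, were lower, by -1.39, -1.19 and -1.14. Both assigned to LRRD1 and CYP51A1, the sterol demethylase of cholesterol synthesis, were lower, by -1.27 and -1.09. The probe set assigned to MIR6840, PILRB and a readthrough transcript differed by -1.40, the one assigned to MIR4738, H3-3B and H3-3A by -1.37, and the one assigned to LOC100996792 and MAP2K3 by -1.23. Those with no symbol differed by -1.21, -1.12, -1.05 and 1.76. The probe set assigned to HSPA1B and HSPA1A differed by 2.27 and the one also assigned to HSPA1L by 1.30. No control probe set serves as a background for these values.

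For 3 genes at least 2-fold lower at 6 h the difference at 24 h from the same untreated array had the opposite sign: SCD at 0.069, HMGCS1 at 0.61 and CCL4 at 0.052. This difference between the times was not tested.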

How the results depend on the processing

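Of the 63 genes named for passing 2-fold, 32 kept that size in each of the 7 alternative scalings, floors and probe set summaries that gave a value, and 31 lost it in at least 1. The other lower genes past 2-fold, from TEAD1 at -1.10 to SLFN11 at -1.004, are outside the 63. Centring on array medians raises every difference equally and moved IDI1 from -1.22 to -0.98, so all of these fell short. They include RGS1, RGS2, P2RY6, RASA2, RUNX3, HEXIM1, GADD45A, ARRDC3, SQSTM1, CCNE2 and JAG1. Bright genes at least 2-fold lower numbered 61 as reported, 38 after quantile normalization, 29 centred on array medians, 39 without shared probe sets, 252 at 1.5-fold and 39 with the level limit at 9. Bright genes at least 2-fold higher numbered 23 as reported, 50 centred on array medians, 119 at 1.5-fold, 39 with the level limit, on the log2 scale, at 7 and 8 with it at 9. Measured genes at least 2-fold lower numbered 395 as reported, 208 after quantile normalization, 164 centred, 115 with a floor of 64, 91 as log2(signal + 32) and 1346 at 1.5-fold. Measured genes at least 2-fold higher numbered 171 as reported, 279 after quantile normalization, 371 centred, 49 with a floor of 64, 43 as log2(signal + 32) and 678 at 1.5-fold. A smaller size, another level or a raised floor changes these counts by construction; for the other alternatives the cause was not tested. No paired analysis was possible because each group has 1 array. Leaving out an array leaves no comparison.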
